A study of Mus musculus with 7 samples.

Results

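The nuclear hormone receptor genes of the carotid artery were described in heterozygous offspring of reciprocal crosses between ApoE-null and wild-type mice. A list of 34 receptor genes was followed among 18193 genes that have a probe set annotated to 1 symbol. Each gene was read from its strongest probe set, the one with the highest mean signal over the arrays, on Affymetrix whole-genome mouse arrays. The first group was 4 arrays of carotid artery from ApoE-/+ offspring of a hypercholesterolemic ApoE-/- mother and a wild-type father. The other was 3 arrays from ApoE-/+ offspring of a wild-type mother with normal cholesterol and an ApoE-/- father. The crosses put the question whether a mother's high cholesterol leaves a mark on the arteries of her young. All offspring carried 1 null allele of Apoe, and both parents differed between the crosses, so the mother's part and the father's part cannot be told apart. Age, sex, litter and diet of the offspring are not given in the labels used here, nor whether arrays stand for different animals, so p-values cover the spread among these 7 arrays, part of which may be technical. Array numbers in the labels run in 1 block for each cross, and an effect of array order and the cross cannot be told apart.

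Values are MAS5 signals, linear intensities scaled so that each array has the same trimmed mean. Median signals were 36.0 to 42.1 on the ApoE-null mother arrays and 38.3 to 41.5 on the wild-type mother arrays. The background was read from 27 probe sets for transcripts of Bacillus subtilis, the highest of which had 10.6 to 20.4 on the ApoE-null mother arrays and at most 22.0 on the wild-type mother arrays. All 7 smooth muscle, 6 endothelial and 5 fibroblast markers passed the filter on low signals, and so did all 6 brown fat markers. The 8 skeletal muscle markers also passed it, some of them only through wild-type mother 2, such as Myh4, a fast myosin, which was above the highest bacterial probe set on that 1 array. Arrays thus stood apart in markers of other tissues. Brown fat markers summed lowest on wild-type mother 3 and skeletal muscle markers highest on wild-type mother 2, with values given beside the receptors. Wild-type mother 2 also had a signal of 41.2 for Xist, which coats the inactive X chromosome of females, against 5174.1 to 5930.9 on the other arrays, and the highest ratio of 3 prime to 5 prime Gapdh signal, 7.8 against 5.03 to 6.56. In such a mixture, fewer cells of a type and less RNA per cell cannot be told apart.

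Nuclear receptors are transcription factors that bind DNA through a zinc finger domain and carry a second domain that, in many members, is a pocket for a small lipophilic ligand. Steroid receptors are held by chaperones until hormone binds, whereas receptors for thyroid hormone, retinoids, vitamin D and fatty acids sit on DNA as dimers with a retinoid X receptor and exchange corepressors for coactivators when ligand arrives. Orphan receptors have no settled natural hormone, and several of them act through how much of the protein is made. In the artery wall the estrogen, glucocorticoid and mineralocorticoid receptors are known for effects on vascular tone, and the peroxisome proliferator-activated receptors for control of lipid handling and inflammation.

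None of the receptor genes passed the test between the crosses. Of the 34 genes, 30 passed the filter on low signals and 0 were called in limma at an adjusted p of 0.05, where 0.0037% of all probe sets tested were called. The smallest adjusted p among them was 0.508. At an unadjusted p of 0.05, limma singled out 4 of the 30 genes (13.3%), namely Esrrg and Nr4a1 with higher and Nr2f1 and Rxrg with lower values in the ApoE-null mother group. Over all probe sets the share was 8.25%, of which 4.3% were higher and 3.96% lower. The groups did not overlap for 3 of the 30 genes, against 8.02% of all probe sets. These were Esr1 and Esrrg, higher with an ApoE-null mother (4.01% of all probe sets), and Nr2f1, lower (4.01%). Each share lay near its background.

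The log2 differences (ApoE-null mother minus wild-type mother) ran from -0.79 for Rxrg to 0.82 for Esrrg, with a median of 0.20 over the 30 genes against -0.0041 over all probe sets. Positive differences were found for 21 of the 30 genes (70.0%) and for 49.4% of all probe sets. The members were chosen as a family and their values are not independent of each other, so no test was made of this count. The median standard error was 0.24 on the log2 scale, and the 95% interval included 0 for 26 of the 30 genes.

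**Figure D1:**
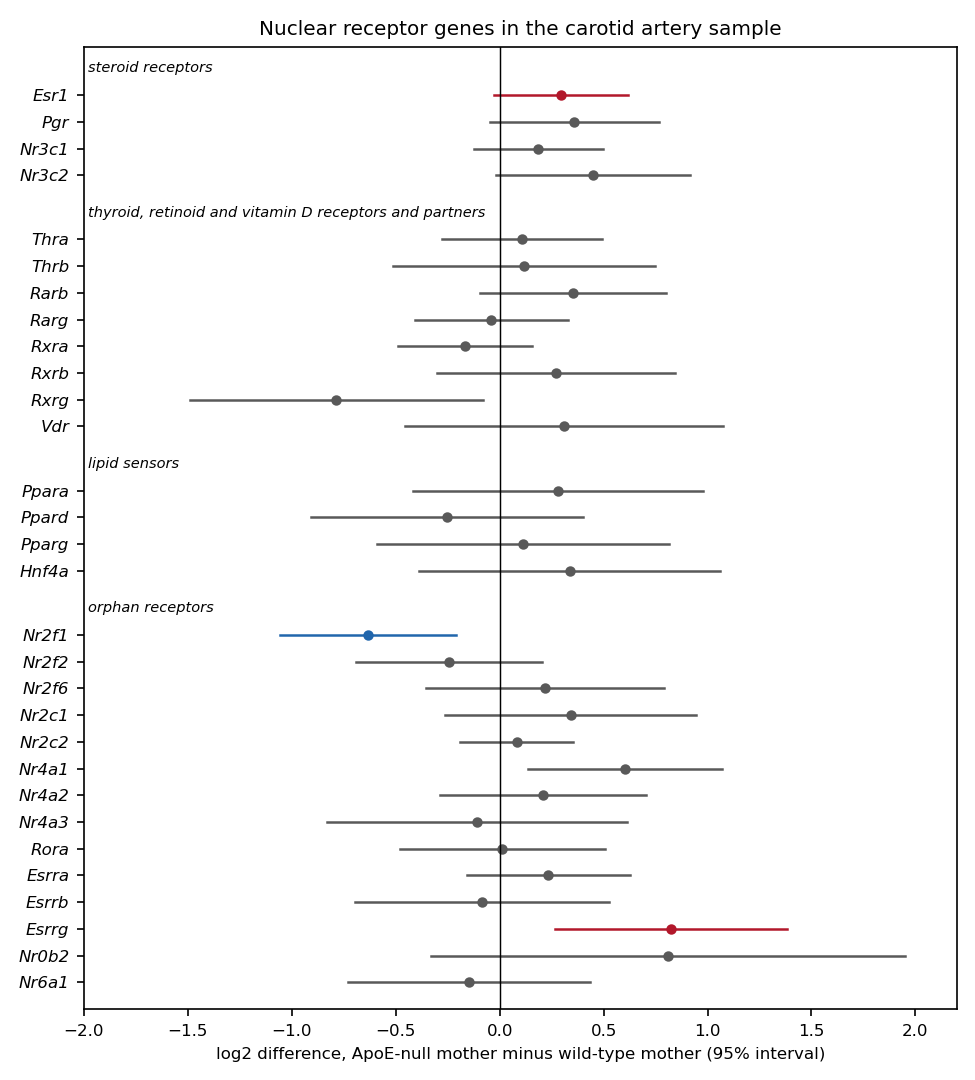
Log2 difference (ApoE-null mother minus wild-type mother) of the 30 tested receptor genes, grouped by role, with points for the fitted value and bars for the 95% interval. Red marks genes whose ApoE-null mother arrays all lie above the wild-type mother arrays (Esr1 and Esrrg), blue the reverse (Nr2f1), and grey genes whose groups overlap; bars of 26 genes cross 0.

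The receptors that were not tested had signals near the bacterial probe sets. Esr2, the second estrogen receptor, had signals of 0.9 to 12.6 with an ApoE-null mother and 2.1 to 4.8 with a wild-type mother, and was below the highest bacterial probe set on every array. Nr1i3, a liver sensor of foreign compounds, was above it on 1 array and Rara, a retinoic acid receptor, on 2, both with an ApoE-null mother. Nr5a2, an orphan receptor of liver and gut, was above it on 4 of 7 arrays. Rara had signals of 6.9, 7.6, 33.2 and 17.8 with an ApoE-null mother and of 3.3, 4.0 and 3.7 with a wild-type mother. Its groups did not overlap, but all 3 wild-type mother arrays and 2 of the 4 ApoE-null mother arrays were below the highest bacterial probe set, so no fold is given. With no filter on low signals, 0 of the 34 receptors were called in limma, 4 had groups that did not overlap and 5 had an unadjusted p under 0.05, where both shares of all probe sets were 7.01%. The tested genes closest to the filter, which lay at a mean signal of 23.6, were Nr0b2 (26.96), Hnf4a (27.7) and Vdr (29.4), and Nr5a2 was the nearest below it (17.0).

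All 4 tested steroid receptors had positive differences between the crosses, with log2 values of 0.19 to 0.45 and a median of 0.33. Esr1, the estrogen receptor of vascular smooth muscle and endothelium, had signals of 924.2, 937.1, 963.6 and 1119.2 with an ApoE-null mother and of 888.2, 857.3 and 672.8 with a wild-type mother. Every ApoE-null mother array lay above every wild-type mother array. Its log2 difference of 0.296 (95% interval -0.03 to 0.62, standard error 0.15), a ratio of 1.23, did not pass the test (limma, adjusted p = 0.631). A second probe set of Esr1 had 106.3, 120.6, 126.4 and 132.3 with an ApoE-null mother and 99.2, 97.7 and 92.7 with a wild-type mother. Its groups did not overlap either, and its log2 difference was 0.32. On wild-type mother 2, the array with little Xist, Esr1 lay between the other arrays of its group. The part of sex in the values of Esr1 was not tested. Without wild-type mother 3, the array lowest for Esr1, the log2 difference of the first probe set was 0.17.

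Pgr, the progesterone receptor and a known target of estrogen signalling, had signals of 639.8, 703.8, 605.6 and 464.8 with an ApoE-null mother and of 390.2, 448.4 and 573.7 with a wild-type mother. The groups overlapped because ApoE-null mother 4 lay below wild-type mother 3. Its log2 difference was 0.36 ± 0.19 (standard error; limma, adjusted p = 0.642). Nr3c2, the mineralocorticoid receptor, which aldosterone activates, had 258.2, 186.5, 174.7 and 179.2 with an ApoE-null mother and 108.6, 176.0 and 156.1 with a wild-type mother. The groups met at 174.7 and 176.0, and ApoE-null mother 1 stood above the rest. On the log2 scale they differed by 0.45, with an interval of -0.02 to 0.91 (limma, adjusted p = 0.618).

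Nr3c1, the glucocorticoid receptor, had signals of 1294.4, 1747.7, 1444.8 and 1347.5 with an ApoE-null mother and of 1381.1, 1176.9 and 1270.8 with a wild-type mother. The groups overlapped, with ApoE-null mother 2 highest. Its 3 tested probe sets had log2 differences of 0.19, 0.36 and 0.25, each with an interval that included 0.

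**Figure D2:**
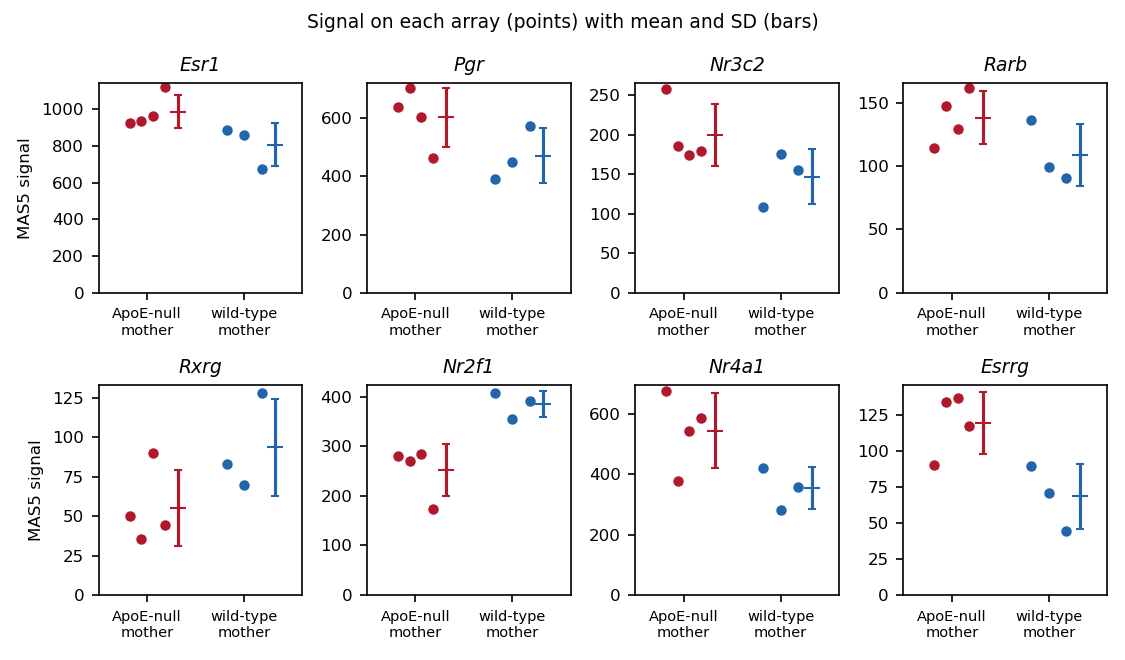
MAS5 signal (linear axis from 0) of 8 receptor genes on each array, red for ApoE-null mother and blue for wild-type mother, with the mean and SD of each group beside the points (n = 4 and n = 3). The groups are apart for Esr1, Nr2f1 and Esrrg and overlap for Pgr, Nr3c2, Rarb, Rxrg and Nr4a1.

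Among the thyroid, retinoid and vitamin D receptors and their partners, 5 of 8 tested genes had positive and 3 negative differences, with a median of 0.11 on the log2 scale. Thra, a thyroid hormone receptor with broad expression, had signals of 1054.2, 691.8, 757.0 and 917.9 with an ApoE-null mother and of 665.8, 815.9 and 881.7 with a wild-type mother. Thrb, the thyroid hormone receptor that dominates in liver, had 28.0, 41.7, 41.2 and 41.3 with an ApoE-null mother and 27.7, 44.2 and 33.3 with a wild-type mother. Both genes overlapped between groups, and leaving out 1 array turned the sign of each. The vitamin D receptor gene Vdr had 21.5 to 40.5 with an ApoE-null mother and 18.9 to 35.8 with a wild-type mother, and on wild-type mother 2 it was below the highest bacterial probe set.

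Of the retinoic acid receptors, Rarb is itself switched on by retinoic acid. It had signals of 114.3, 147.5, 129.3 and 161.7 with an ApoE-null mother and of 136.6, 98.9 and 90.6 with a wild-type mother. The array of wild-type mother 1 lay among the ApoE-null mother arrays. The fitted difference was 0.35 on the log2 scale, its interval -0.10 to 0.80 (limma, adjusted p = 0.672). Rarg, the retinoic acid receptor known from skin and cartilage, had 442.9, 307.7, 330.5 and 303.7 with an ApoE-null mother and 356.3, 338.3 and 361.5 with a wild-type mother, and the wild-type mother arrays lay within the range of the others.

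The promoter of Rarb is shown because it carries the element by which the gene answers retinoic acid. The RefSeq promoter table (GRCm38.p6) gives 250 bases before to 50 bases after the start, here chr14:16575427-16575726 on the minus strand. Capitals mark a match to the retinoid direct repeat, GTTCA and AGTTCA with any 5 bases between them, searched on both strands. It was found in 0.0335% of the 32851 promoters of the table (11 promoters) and in 1 of the 32 receptor genes looked up there. The pattern has the letters of the Rarb element with only its spacer left free, so a match in Rarb was set in advance. The share is that of this pattern and not of retinoid elements in general. The match is a description of these letters and says nothing on its use in the artery.
Rarb: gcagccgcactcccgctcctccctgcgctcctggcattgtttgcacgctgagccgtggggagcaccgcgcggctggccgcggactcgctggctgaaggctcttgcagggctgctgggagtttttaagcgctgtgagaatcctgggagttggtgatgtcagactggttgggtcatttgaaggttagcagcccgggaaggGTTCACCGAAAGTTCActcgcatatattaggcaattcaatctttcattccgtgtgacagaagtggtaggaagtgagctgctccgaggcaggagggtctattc

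The retinoid X receptors, the shared dimer partners, had differences of either sign. Rxrg, the form known from skeletal muscle and brain, had signals of 50.1, 35.3, 90.0 and 44.6 with an ApoE-null mother and of 83.3, 69.7 and 128.2 with a wild-type mother. ApoE-null mother 3 lay among the wild-type mother arrays and the other 3 lay below them. Rxrg differed by -0.79 on the log2 scale (standard error 0.32, interval -1.49 to -0.08) without passing (limma, adjusted p = 0.585), and by -1.04 to -0.54 when single arrays were left out. Summed signals of the 8 skeletal muscle markers were 137.9 to 227.9 with an ApoE-null mother, against 178.3, 2410.6 and 277.0 on the arrays of wild-type mother 1, 2 and 3. On the array with the high muscle sum, wild-type mother 2, Rxrg was lowest of its group. All 3 tested Schwann cell markers had negative differences, with a median of -1.22, and none was called in limma (smallest adjusted p = 0.59). They summed to 5936.2, 3430.8, 5076.3 and 3804.3 with an ApoE-null mother and to 5209.0, 4432.6 and 7025.0 with a wild-type mother. Most of each sum was Pmp22, at 3285.6 to 4575.4 over the arrays, and the other 2 markers varied more. Sox10 had 83.0, 12.2, 95.8 and 5.6 with an ApoE-null mother and 157.5, 46.7 and 265.9 with a wild-type mother. Mbp had 1422.9, 133.0, 1173.9 and 101.4 with an ApoE-null mother and 1000.2, 343.6 and 2183.7 with a wild-type mother. The part of muscle or nerve in the values of Rxrg was not tested.

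Rxra, the form of most tissues, had signals of 348.0, 301.3, 292.0 and 301.3 with an ApoE-null mother and of 323.8, 340.4 and 382.4 with a wild-type mother. Rxrb had 296.5, 626.4, 450.1 and 668.9 with an ApoE-null mother and 490.8, 367.7 and 362.2 with a wild-type mother. Both overlapped between groups, and Rxrb spanned more than its group difference within the ApoE-null mother group. Their log2 differences were -0.17 and 0.27, with intervals that included 0.

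The lipid sensors gave 3 positive and 1 negative difference in 4 tested genes. Ppara, which switches on fatty acid oxidation, had signals of 182.6, 126.9, 231.7 and 303.8 with an ApoE-null mother and of 201.1, 218.7 and 102.2 with a wild-type mother, and the groups overlapped. The further 2 tested probe sets of Ppara had larger differences. On the first the signals were 106.4, 188.3, 198.5 and 170.3 with an ApoE-null mother and 138.1, 106.6 and 55.3 with a wild-type mother. On the second they were 123.7, 173.4, 161.3 and 142.5 with an ApoE-null mother and 140.3, 96.0 and 54.7 with a wild-type mother. Log2 differences were 0.28 for the strongest probe set and 0.77 and 0.71 for these, none of which passed (limma, adjusted p = 0.835, 0.584 and 0.574). The array of wild-type mother 3 was lowest on all 3 probe sets, and without it the log2 differences were -0.06, 0.41 and 0.35.

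Pparg, the receptor that drives fat cell formation, had signals of 205.7, 212.3, 274.9 and 230.5 with an ApoE-null mother and of 245.5, 354.6 and 108.9 with a wild-type mother. Its wild-type mother arrays lay on both sides of the ApoE-null mother arrays, with wild-type mother 3 again lowest. Group means were 231 ± 31.2 (SD, n = 4) and 236 ± 123 (SD, n = 3). The log2 difference was nevertheless positive at 0.11, and it was -0.36 once wild-type mother 3 was left out and 0.48 once wild-type mother 2 was. Ppard, a widely expressed relative, had 41.9, 46.1, 24.1 and 29.3 with an ApoE-null mother and 36.7, 41.0 and 46.6 with a wild-type mother. Hnf4a, a receptor of liver and gut, averaged 30.7 ± 7.61 with an ApoE-null mother (SD, n = 4) and 23.8 ± 5.45 with a wild-type mother (SD, n = 3), and was below the highest bacterial probe set on wild-type mother 2.

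The sum of brown fat markers was low on the same array. The 6 markers, of which none was at background, summed to 7521.1, 9878.2, 11826.9 and 9249.2 on the ApoE-null mother arrays and to 5624.3, 9510.8 and 2251.8 on the wild-type mother arrays. Wild-type mother 3, lowest for Ppara and Pparg, was also lowest in this sum, and wild-type mother 2, highest for Pparg, was highest of its group. Ucp1, which lets brown fat mitochondria make heat, had 3146.6, 4614.3, 5059.5 and 3886.9 with an ApoE-null mother and 1447.5, 2297.1 and 420.1 with a wild-type mother. The part of brown fat in the receptor values was not tested.

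**Figure D3:**
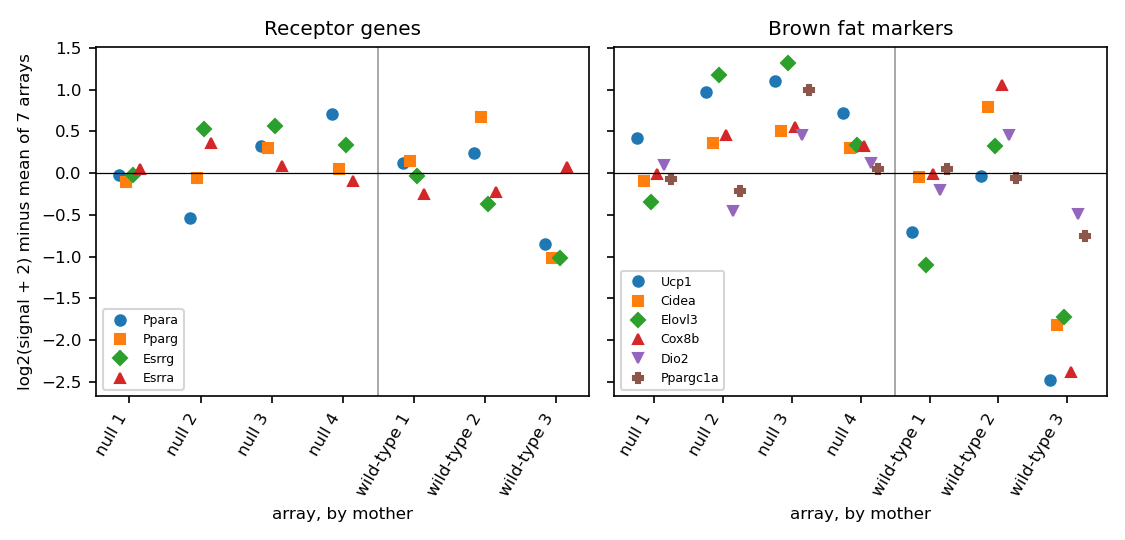
Deviation of log2(signal + 2) from the mean of the 7 arrays for 4 receptor genes (left) and 6 brown fat markers (right), with the 4 ApoE-null mother arrays left of the grey line and the 3 wild-type mother arrays right of it. On wild-type mother 3, Ppara, Pparg, Esrrg and all 6 markers are below their mean and Esrra is not.

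Among the orphan receptors, 9 of 14 tested genes had positive and 5 negative differences. The chicken ovalbumin upstream promoter factors Nr2f1 and Nr2f2, repressors and activators with roles in vein, atrium and nerve development, were on the negative side. Nr2f1 had signals of 280.2, 269.2, 283.3 and 173.7 with an ApoE-null mother and of 406.2, 354.9 and 392.0 with a wild-type mother. All ApoE-null mother arrays lay below all wild-type mother arrays, and ApoE-null mother 4 lay furthest below. Means were 252 ± 52.3 (SD, n = 4) and 384 ± 26.5 (SD, n = 3), which is -0.63 on the log2 scale (standard error 0.19, interval -1.05 to -0.21) and did not pass (limma, adjusted p = 0.508). The log2 difference stayed between -0.70 and -0.46 when each array was left out in turn.

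Nr2f2 had 6 tested probe sets, 5 of them with negative differences. The strongest had 521.7, 321.1, 420.7 and 370.0 with an ApoE-null mother and 457.6, 387.5 and 608.5 with a wild-type mother, a log2 difference of -0.24 with overlapping groups. On a weaker one the signals were 79.3, 66.5, 96.0 and 54.2 with an ApoE-null mother and 150.7, 104.8 and 179.8 with a wild-type mother, and the groups did not overlap. That log2 difference was -0.95 with an interval of -1.49 to -0.40 (limma, adjusted p = 0.459). The probe sets of Nr2f2 thus differed from each other in size, from -0.95 to 0.12. Of the 6 carotid body and ganglion markers none was called in limma (smallest adjusted p = 0.546). All 6 had negative differences, with a median of -0.76 on the log2 scale, but without wild-type mother 1 this held for 3 of the 6, with a median of -0.16. They summed to 323.5 to 915.2 with an ApoE-null mother and to 2781.3, 920.4 and 365.6 on wild-type mother 1, 2 and 3. Nr2f1 was at -0.59 without wild-type mother 1, the array with the highest ganglion sum. Without that array the 2 probe sets of Nr2f2 given above were at -0.27 and -0.905. Schwann cell markers, given beside Rxrg, summed highest on wild-type mother 3, and without it Nr2f1 was at -0.62. The same 2 probe sets of Nr2f2 were then at -0.07 and -0.78. The part of nerve tissue in the values of Nr2f1 and Nr2f2 was not tested. Nr2f6, the remaining member of this branch, had 118.9, 182.5, 102.0 and 168.0 with an ApoE-null mother and 86.5, 160.9 and 121.1 with a wild-type mother, and its 2 probe sets had opposite signs (0.22 and -0.31).

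The Nr4a genes encode receptors without a ligand pocket that cells make within minutes of a stimulus, including cyclic AMP. Their promoters are shown because all 3 carry repeated copies of the core of the cyclic AMP element. Capitals mark TGACG, or CGTCA where the match is on the other strand. Each of the 3 sequences holds 4 copies, a number reached by 0.231% of the 32851 RefSeq promoters of this length (GRCm38.p6) and by no other receptor gene of the 32 looked up. At least 1 copy was found in 20.8% of all promoters. The windows are chr15:101266596-101266895 on the plus strand for Nr4a1, chr2:57123954-57124253 on the minus strand for Nr4a2 and chr4:48045055-48045354 on the plus strand for Nr4a3. The full palindrome TGACGTCA, found in 1.79% of all promoters, was in none of the 3.
Nr4a1: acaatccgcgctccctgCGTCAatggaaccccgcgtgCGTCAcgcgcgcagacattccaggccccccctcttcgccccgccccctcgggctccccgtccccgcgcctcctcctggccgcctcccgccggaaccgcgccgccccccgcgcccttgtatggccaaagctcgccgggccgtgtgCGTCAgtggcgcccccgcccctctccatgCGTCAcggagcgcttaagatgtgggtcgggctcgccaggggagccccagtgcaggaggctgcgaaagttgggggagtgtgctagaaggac
Nr4a2: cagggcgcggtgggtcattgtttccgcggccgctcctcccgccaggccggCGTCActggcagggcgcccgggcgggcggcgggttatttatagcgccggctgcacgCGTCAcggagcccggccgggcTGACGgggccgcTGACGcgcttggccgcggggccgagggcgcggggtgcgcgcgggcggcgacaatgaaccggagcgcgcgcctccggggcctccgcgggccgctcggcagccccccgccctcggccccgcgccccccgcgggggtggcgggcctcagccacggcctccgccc
Nr4a3: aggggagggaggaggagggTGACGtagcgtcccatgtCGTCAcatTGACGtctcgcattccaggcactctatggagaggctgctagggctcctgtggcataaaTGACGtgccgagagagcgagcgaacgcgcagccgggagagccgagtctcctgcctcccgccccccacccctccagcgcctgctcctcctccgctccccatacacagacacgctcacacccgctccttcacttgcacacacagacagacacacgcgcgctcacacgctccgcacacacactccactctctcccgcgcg

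The 3 genes did not share one pattern over the arrays. Nr4a1, also called Nur77, had signals of 674.8, 376.1, 541.7 and 584.6 with an ApoE-null mother and of 422.0, 282.6 and 358.9 with a wild-type mother. All but ApoE-null mother 2 lay above the wild-type mother arrays. Nr4a1 differed by 0.60 on the log2 scale (standard error 0.21, interval 0.14 to 1.07) without passing (limma, adjusted p = 0.549), and by 0.45 to 0.77 when single arrays were left out. Nr4a1 is also known as a gene that thymocytes and T cells switch on after antigen receptor signals. The 5 thymocyte markers summed to 621.1, 515.6, 361.9 and 442.0 with an ApoE-null mother and to 139.2, 45.0 and 42.5 with a wild-type mother. Of these, 4 were tested and all 4 were positive, but none was called in limma (smallest adjusted p = 0.0901). With a wild-type mother Rag1, Dntt and Ccr9 averaged 19.8, 16.8 and 9.0, under the filter of 23.6, and Themis averaged 26.5. Rag1, Dntt and Ccr9 thus passed the filter only through their ApoE-null mother signals, so it favoured a positive sign for them. The part of thymocytes in the value of Nr4a1 was not tested.

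Nr4a2 had signals of 479.4, 468.3, 530.9 and 269.2 with an ApoE-null mother and of 323.8, 423.6 and 357.5 with a wild-type mother. All wild-type mother arrays lay below ApoE-null mother 1, 2 and 3 and above ApoE-null mother 4. All 4 tested probe sets of Nr4a2 had positive differences, of 0.03 to 0.21 on the log2 scale. Nr4a3 had 128.6, 383.5, 354.9 and 215.0 with an ApoE-null mother and 289.4, 304.1 and 217.3 with a wild-type mother. Its ApoE-null mother arrays lay on both sides of the wild-type mother arrays, and the array highest for Nr4a1, ApoE-null mother 1, was lowest for Nr4a3.

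The estrogen-related receptors act without hormone and drive genes of mitochondrial energy metabolism together with the coactivators Ppargc1a and Ppargc1b. Esrrg, the form of highly oxidative tissues such as heart and brown fat, had signals of 90.5, 134.0, 137.2 and 117.2 with an ApoE-null mother and of 89.8, 71.1 and 44.7 with a wild-type mother. The groups did not overlap, although ApoE-null mother 1 and wild-type mother 1 nearly touched. Means were 120 ± 21.4 (SD, n = 4) and 68.5 ± 22.7 (SD, n = 3), which is 0.82 on the log2 scale (standard error 0.26, interval 0.26 to 1.38), or 1.77-fold, and did not pass (limma, adjusted p = 0.514). The other 2 probe sets of Esrrg had log2 differences of 0.41 and 0.26 with overlapping groups. Without wild-type mother 3, the array lowest in brown fat markers, the log2 difference of the strongest probe set was 0.55.

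Esrra, the form of most tissues, had signals of 149.8, 185.4, 152.8 and 134.5 with an ApoE-null mother and of 121.3, 122.5 and 151.6 with a wild-type mother. The groups overlapped through wild-type mother 3, which was highest of its group here. The log2 difference was 0.23 (limma, adjusted p = 0.744). Esrrb, known from stem cells and the inner ear, had 53.0, 42.1, 47.2 and 30.1 with an ApoE-null mother and 41.3, 57.2 and 38.3 with a wild-type mother. It was read from a probe set marked as open to cross-hybridisation.

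The remaining orphan receptors overlapped between groups. Rora, which acts in the clock and in lipid metabolism, had signals of 771.1, 839.3, 758.9 and 1012.7 with an ApoE-null mother and of 1010.3, 539.4 and 1057.1 with a wild-type mother. Wild-type mother 2 was far below the others on this probe set. On the next strongest it was highest of its group (270.7, 358.1 and 287.8 on wild-type mother 1, 2 and 3). The 6 tested probe sets of Rora had 3 positive and 3 negative differences, from -0.18 to 0.21 on the log2 scale. Nr2c2, a testicular receptor that binds repeats of the half-site, had 1291.9, 1249.5, 1305.6 and 1268.1 with an ApoE-null mother and 1148.0, 1342.7 and 1145.7 with a wild-type mother. The log2 difference of Nr2c2 on this probe set was 0.08 with an interval of -0.19 to 0.35, the narrowest among the tested receptors. Its 4 tested probe sets had 1 positive and 3 negative differences, from -0.71 to 0.08.

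Nr2c1, the partner of Nr2c2, had signals of 181.0, 154.1, 148.6 and 172.2 with an ApoE-null mother and of 171.9, 72.7 and 169.5 with a wild-type mother. Only wild-type mother 2 was low on this probe set, and without it the log2 difference was -0.06. The 4 tested probe sets of Nr2c1 had 3 positive and 1 negative difference, from -0.04 to 0.61. The largest did not pass (limma, adjusted p = 0.59) and stayed between 0.48 and 0.77 when each array was left out in turn. Nr6a1, the germ cell nuclear factor, had 34.8, 45.9, 46.5 and 53.4 with an ApoE-null mother and 52.2, 37.4 and 62.6 with a wild-type mother. Nr0b2, a repressor without a DNA-binding domain that is known from liver, had 14.0 to 63.7 with an ApoE-null mother and 8.7 to 26.3 with a wild-type mother. Its log2 difference of 0.81 came with the widest interval, -0.33 to 1.95.

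Where a gene had several probe sets, they could be set against each other for direction. Of the 97 probe sets of the receptor genes, 62 passed the filter, and 14 genes had more than 1 of them. All probe sets of a gene had the same sign in 7 of these 14 genes, namely Esr1, Nr3c1, Ppara, Nr4a2, Esrra, Esrrg and Nr6a1. Of the 32 tested probe sets that did not stand for their gene, 0 were called in limma and 4 had an unadjusted p under 0.05, against 8.25% of all probe sets. Probe sets of 1 gene share the RNA of the same arrays and are not replicates. Labelling by 2 rounds of oligo-dT priming favours sequence near the 3 prime end of a transcript, and signals of different probe sets were therefore not compared in level.

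**Figure D4:**
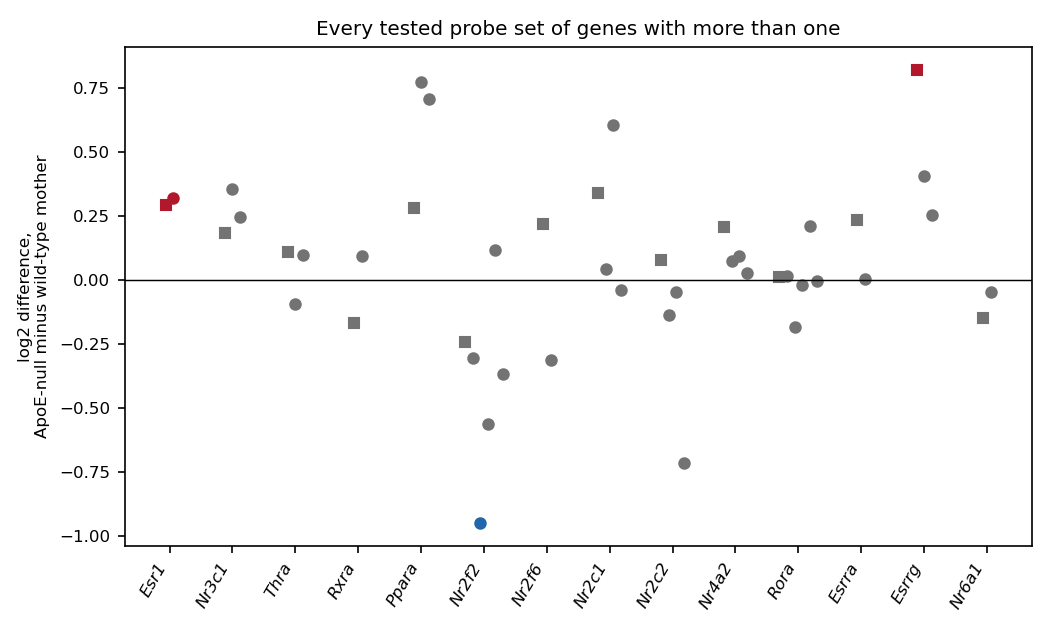
Log2 difference (ApoE-null mother minus wild-type mother) of every tested probe set for the 14 receptor genes with more than 1, squares for the probe set that stands for the gene and circles for the others. Red and blue mark probe sets whose groups do not overlap, higher and lower with an ApoE-null mother. Both probe sets of Esr1 lie near 0.3, while those of Nr2f2 reach from -0.95 to 0.12.

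The receptors' partner proteins and target genes were taken from lists of textbook members. The list of 18 coregulators with a probe set had 12 positive and 6 negative differences, with a median of 0.08 on the log2 scale and 0 genes called in limma. Ppargc1b, a coactivator of the estrogen-related receptors, had signals of 355.4, 388.0, 381.5 and 361.1 with an ApoE-null mother and of 326.5, 282.6 and 176.8 with a wild-type mother, without overlap, and a log2 difference of 0.55 (limma, adjusted p = 0.550). Lcor, a ligand-dependent corepressor, had a log2 difference of 0.46 (limma, adjusted p = 0.665). Ppargc1b was the 1 coregulator of 18 with an unadjusted p under 0.05 in limma, against 8.25% of all probe sets in either direction. The count rose to 3 once wild-type mother 1 was left out, against 9.35% of all probe sets. Leaving out wild-type mother 3 gave a count of 0, against 7.03%.

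Of 7 tested chaperone genes of steroid receptors, 0 were called and 3 had an unadjusted p under 0.05 in limma, all lower with an ApoE-null mother. The share of all probe sets lower at that p was 3.96%. Fkbp4, the immunophilin that helps the progesterone and glucocorticoid receptors bind hormone, had signals of 113.5, 123.2, 112.7 and 137.4 with an ApoE-null mother and of 246.3, 180.5 and 206.2 with a wild-type mother. The groups were well apart, and the log2 difference was -0.78 ± 0.17 (standard error; limma, adjusted p = 0.418). Leaving out single wild-type mother arrays gave -0.88 to -0.66. Hspa8, the constitutive heat shock protein of the same complex, had a log2 difference of -0.49 (limma, adjusted p = 0.508), on a probe set open to cross-hybridisation.

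Genes that make, carry or break down receptor ligands had 8 positive and 4 negative differences in 12 tested genes, with 0 called. Aldh1a3, an enzyme that makes retinoic acid, had signals of 41.9, 51.0, 68.2 and 56.1 with an ApoE-null mother and of 37.0, 26.0 and 18.8 with a wild-type mother. The groups did not overlap, and the log2 difference was 0.97 (limma, adjusted p = 0.508). Rdh10, which makes the retinaldehyde that Aldh1a3 uses, had a log2 difference of 0.40 (limma, adjusted p = 0.619). The 4 tested retinoid target genes had 1 positive and 3 negative differences, with Rarres2 at -0.27 and Dhrs3 at -0.26, and none passed in limma (adjusted p = 0.663 and 0.720). Crabp2, a carrier of retinoic acid, did not exceed the highest bacterial probe set on any array, a gene chosen after its values were seen.

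Target genes of PPARs had positive differences in all 14 tested genes, with a median of 0.49 on the log2 scale. None was called in limma, and 6 had an unadjusted p under 0.05 and higher values, where the share of all probe sets was 4.3%. Pdk4, a kinase that spares glucose when fatty acids are burned, had signals of 1745.9, 2463.4, 3340.6 and 2015.4 with an ApoE-null mother and of 1408.9, 1296.9 and 868.4 with a wild-type mother. The groups did not overlap, and the log2 difference was 0.99 ± 0.23 (standard error; limma, adjusted p = 0.429). Ucp3, a mitochondrial carrier of muscle and brown fat, had 68.8, 87.6, 104.1 and 80.4 with an ApoE-null mother and 62.4, 34.0 and 34.4 with a wild-type mother, and a log2 difference of 0.98 (limma, adjusted p = 0.467). Without wild-type mother 3, the array lowest in brown fat markers, 11 of the 14 PPAR targets were positive with a median of 0.22, and 2 had an unadjusted p under 0.05. Cidea of this list is also among the brown fat markers and Adipoq is made by fat cells, and the part of fat in these values was not tested. The count of 6 became 10 without wild-type mother 2, and 3 without ApoE-null mother 3 or without ApoE-null mother 4. Shares of all probe sets at that p, in either direction, were then 9.38%, 5.48% and 9.62%. Without wild-type mother 3 that share was 7.03%.

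Targets of the estrogen-related receptors, a list that holds Esrra and Pdk4, had positive differences in all 9 tested genes with a median of 0.39. None was called in limma and 3 had an unadjusted p under 0.05 and higher values, against 4.3% of all probe sets. Without wild-type mother 2 the count was 7, and 9.38% of all probe sets passed that p in either direction. Atp5b, a subunit of ATP synthase, had signals of 2780.3, 2850.4, 2967.8 and 3114.3 with an ApoE-null mother and of 2510.3, 1900.2 and 2163.9 with a wild-type mother, a log2 difference of 0.43 (limma, adjusted p = 0.502). Without wild-type mother 3, 8 of 9 were positive with a median of 0.34. That array moved the median of this list less than the median of the PPAR targets, a difference that was not tested.

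**Figure D5:**
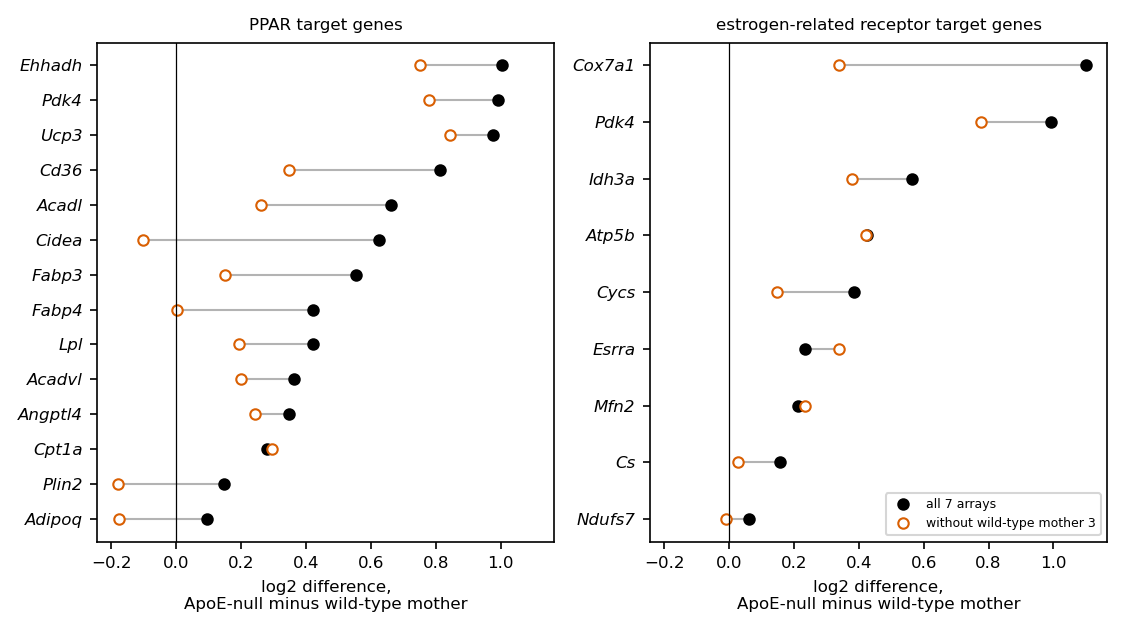
Log2 difference (ApoE-null mother minus wild-type mother) of the 14 tested PPAR target genes (left) and the 9 tested targets of estrogen-related receptors (right), with filled points for all 7 arrays and open points without wild-type mother 3. With all arrays every point is above 0, and without that array 3 PPAR targets and 1 target of estrogen-related receptors are below 0.

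The hormone target lists had mixed signs, and none of their genes was called in limma. Of 14 glucocorticoid receptor targets, 9 were positive and 5 negative with a median of 0.05, and Sult1a1 (0.47) and Pdk4 had the smallest p-values. Without wild-type mother 3, 13 of these were positive, and without wild-type mother 1, 6 were. Of 7 thyroid hormone targets, 5 were positive and 2 negative with a median of 0.13, and Ucp1 (1.88) and the glucose transporter gene Slc2a4 (0.54) led the list. Without wild-type mother 3, 3 of the 7 were positive. Of 6 estrogen and progesterone targets, 2 were positive and 4 negative with a median of -0.13. Without ApoE-null mother 4, 4 were positive and 2 negative with a median of 0.055. In that list Cited2, a coactivator that binds CBP and p300, had a log2 difference of 0.75, and Ccnd1, which encodes cyclin D1, of -0.52 (limma, adjusted p = 0.508 and 0.555). The positive values of the estrogen and progesterone receptor genes thus stood beside targets of either sign.

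Receptors of the family outside the list gave 3 tested genes, all with negative differences and a median of -0.07. Without ApoE-null mother 1, 2 of the 3 were positive with a median of 0.015. Nr1d1, a repressor of the clock, had signals of 176.5, 248.9, 132.4 and 227.8 with an ApoE-null mother and of 200.1, 312.9 and 380.5 with a wild-type mother, with overlap and a log2 difference of -0.59 (limma, adjusted p = 0.602). Nr1h3, an oxysterol receptor, had a log2 difference of -0.07, and Nr1d2 one of -0.02.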

How the data were processed

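Carotid artery RNA from 7 samples was measured on Affymetrix whole-genome mouse arrays. Per the labels' protocols, RNA was amplified with oligo-dT in 2 cycles and labelled with biotin. The deposited values are intensities, MAS5 signals per probe set on a linear scale obtained with GCOS, per the submitters' processing notes, which name no version. The 2% trimmed mean of each deposited array was 200.0, and this scaling was kept. The platform annotation paired 34958 of 45101 probe sets with 1 symbol, 932 with several and 9211 with none. No detection calls were used, and the number of arrays limits the precision.

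Signals were transformed to log2(signal + 2), so fold changes are on that scale and understate changes of weak genes. The 64 control probe sets were left out, and 27027 probe sets remained whose mean signal exceeded 23.6, the 40th percentile. Group differences came from limma 3.58.1 (lmFit, then eBayes using an intensity trend; R 4.3.3) with no covariates, and have the ApoE-null mother group on top. P-values were adjusted by Benjamini-Hochberg over all kept probe sets, with a threshold of 0.05 and 95% intervals. The fit was tested on simulated data. No array pair shared most of its values.

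The receptor genes, gene lists and tests were chosen with earlier results of these data known. Receptors with signals above the bacterial probe sets on all arrays, or with a small p or groups apart, were given per array. In each list the 2 genes with the smallest p were named, and any further gene was chosen after its values were seen. List genes without a probe set of 1 symbol were not analysed here. Promoters came from a RefSeq table of GRCm38.p6, in which 32 of the receptor genes used were looked up. Any receptor promoters on an excluded chromosome were not looked up, while shares over all promoters were taken without that exclusion. Alternatives were pseudocounts of 1 and 16, no filter or the 60th percentile, quantile or median scaling, no intensity trend, array weights, other probe sets and leaving out each array.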

Additional observations from a re-analysis of the deposited data

Results flagged for a closer look

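In 3 of the 34 receptor genes, 1 array of the ApoE-null mother group stood far from the other 3 on the log2 scale, relative to the range of the group. Chance marks about 1 in 20 groups in this way. For Nr3c2 it was ApoE-null mother 1 with the highest signal of its group, 258.2, where the next was 186.5. For Thrb it was the same array with the lowest signal, 28.0, where the next was 41.2. For Nr2f1 it was ApoE-null mother 4 with the lowest signal, 173.7, where the next was 269.2. The wild-type mother group, with 3 arrays, was too small for this check.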

How the results depend on the processing

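No receptor gene was called under any of the 16 alternatives, and the smallest adjusted p of any was 0.311 (limma). Over all probe sets, 1 was called. The count was 2 with quantile normalization, 0 with no intensity trend, 2 with array weights and 0 to 18 when single arrays were left out (18 without wild-type mother 1). The median log2 difference of the receptors ran from 0.114 to 0.242 without single arrays. The number of receptors whose groups did not overlap was then 4 to 6, while the share over all probe sets was 10.6% to 18.7%.

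Of 472 gene values under alternatives, 449 kept their direction and 23 reversed, in 14 genes. With the mean of all probe sets of a gene, Rxra was at 0.034, Vdr at -0.204, Nr2f6 at -0.047 and Nr2c2 at -0.279. That mean took in probe sets that did not pass the filter on low signals, such as a weaker one of Vdr with a mean signal of 7.8. With array weights, Nr4a3 was at 0.068, Rora at -0.144 and Esrrb at 0.014. Rora was also at -0.002 with quantile normalization and at -0.005 with scaling by the array median. Leaving out single arrays gave -0.008 to 0.204 for Thra, -0.029 to 0.289 for Thrb, -0.165 to 0.016 for Rarg, -0.007 to 0.433 for Nr2f6 and -0.062 to 0.548 for Nr2c1. It gave -0.317 to 0.203 for Nr4a3, -0.299 to 0.185 for Rora, -0.195 to 0.083 for Esrrb, -0.06 to 0.499 for Ppara, -0.361 to 0.482 for Pparg and -0.343 to 0.014 for Nr6a1. The cause was not tested. No paired analysis was possible because the labels give the crosses no shared replicate numbers. Weak signals limit Vdr, Hnf4a and Nr0b2.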
